A study of Mus musculus with 4 samples.

Results

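Binding of the transcription factor ERG was examined at the loci of 8 genes that control myeloid and progenitor cells and recur in leukemia: Meis1, Hoxa9, Myb, Myc, Kit, Spi1, Cebpa and Gfi1. A peak belonged to a locus when its centre lay in a fixed window of the mouse build mm9 around the gene. The 8 windows were 110 to 300 kb wide and covered 1380 kb in all. They held 6 of the 5738 ERG peaks of leukemia 1 and 5 of the 3751 peaks of leukemia 2. Both lists come from chromatin immunoprecipitation and sequencing (ChIP-seq) of formaldehyde-fixed spleen cells of C57BL6 mice, in a study of myeloid leukemia in mice with an ERG transgene (TgERG). The label of leukemia 1 is Transgenic. That of leukemia 2 is Transgenic GATA1s, and GATA1s usually denotes the shortened form of GATA1, a factor of red cells and megakaryocytes. Each leukemia gave 1 library with a polyclonal antibody against ERG-1/2/3 and 1 with control rabbit IgG. By their titles both leukemias carry the ERG transgene, and no group without it was analysed here. The sources used here do not give the promoter that drives the transgene or how many animals a library holds. There are no replicates, and a peak is a position alone, with no height and no read depth. The cell type of the spleen samples could not be checked against marker genes, because no expression was measured in these files.

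ERG is a member of the ETS family, whose DNA-binding domain recognises sites built on the core letters GGAA, and it works in blood stem cells and megakaryocytes. Meis1 and Hoxa9 are homeobox factors that act together on DNA and sustain self-renewal of leukemia cells. Myb and Myc keep progenitors dividing, and Kit is the receptor for stem cell factor on progenitors and mast cells. Spi1 encodes PU.1, itself an ETS factor and a main driver of myeloid fate. Cebpa and Gfi1 are required for the granulocyte lineage. Many of the elements that control these genes lie far from their start sites.

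The regions under the peaks cannot be shown as letters, since no mm9 sequence was used here. For reference, the 250 bases before the start are printed for Meis1 and Hoxa9, whose windows held no peak, and for Myb and Gfi1, whose windows held peaks. They are RefSeq sequences of the build GRCm38.p6, read 5′ to 3′ on the strand of the gene, which is the minus strand for all 4 genes. The mm9 peaks were not placed on them. Capitals mark GGAA and its complement TTCC, which is GGAA on the other strand, and the 2 words cannot overlap. Gfi1 has 2 starts in the table and both are given. Of the 8 genes, 6 were matched in the table by symbol, and Spi1 and Myc were not.
Meis1 (chr11:19018970-19019219): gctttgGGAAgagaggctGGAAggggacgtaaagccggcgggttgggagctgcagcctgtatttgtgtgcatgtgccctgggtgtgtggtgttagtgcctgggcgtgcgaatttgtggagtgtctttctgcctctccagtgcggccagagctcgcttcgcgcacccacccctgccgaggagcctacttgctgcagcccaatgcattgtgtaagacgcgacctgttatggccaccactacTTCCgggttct
Hoxa9 (chr6:52227371-52227620): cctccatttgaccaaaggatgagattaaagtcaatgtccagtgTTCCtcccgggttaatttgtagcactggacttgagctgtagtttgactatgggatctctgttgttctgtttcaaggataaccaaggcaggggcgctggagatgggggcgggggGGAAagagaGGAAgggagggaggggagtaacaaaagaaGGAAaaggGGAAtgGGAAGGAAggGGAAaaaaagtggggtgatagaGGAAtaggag
Myb (chr10:21160985-21161234): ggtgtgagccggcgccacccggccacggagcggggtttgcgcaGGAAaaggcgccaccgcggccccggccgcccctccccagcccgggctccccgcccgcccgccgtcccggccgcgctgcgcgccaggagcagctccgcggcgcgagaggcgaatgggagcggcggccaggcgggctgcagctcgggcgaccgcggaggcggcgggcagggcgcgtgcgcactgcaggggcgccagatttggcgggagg
Gfi1, outer start (chr5:107725806-107726055): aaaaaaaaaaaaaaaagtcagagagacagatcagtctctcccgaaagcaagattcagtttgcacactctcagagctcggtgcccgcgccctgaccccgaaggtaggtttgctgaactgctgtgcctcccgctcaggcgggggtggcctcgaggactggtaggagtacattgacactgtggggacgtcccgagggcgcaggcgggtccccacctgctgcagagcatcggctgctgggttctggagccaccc
Gfi1, inner start (chr5:107724344-107724593): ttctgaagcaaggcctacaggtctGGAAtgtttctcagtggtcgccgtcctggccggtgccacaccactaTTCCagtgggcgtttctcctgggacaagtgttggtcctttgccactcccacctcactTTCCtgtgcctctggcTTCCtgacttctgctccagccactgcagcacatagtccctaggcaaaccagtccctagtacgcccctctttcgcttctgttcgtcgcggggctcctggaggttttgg

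The core word GGAA was spread unevenly over these starts. Counted on both strands, Hoxa9 had 9 copies, a number that 0.505% of the 32851 promoters in the table reach or pass. Meis1 had 3 copies, which is the median of all promoters, and 1 of them was the longer word CCGGAA, found in 12% of promoters. Myb, Kit at each of its starts, and Cebpa had 1 copy each. Gfi1 had 0 copies at the outer start and 4 at the inner one. At least 1 copy was present in 93.4% of all promoters. These counts describe letters and say nothing of whether ERG was bound there.

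ERG peaks were found at 3 of the 8 loci, Myb, Spi1 and Gfi1, and the same 3 loci had peaks in both leukemias. The lists overlap widely: 55.8% of all leukemia 1 peaks and 85.3% of all leukemia 2 peaks overlapped a peak of the other list. The share of tiles with a peak in both lists was not counted. The windows of Meis1, Hoxa9, Myc, Kit and Cebpa had 0 peaks in leukemia 1 and 0 in leukemia 2. As a background, each chromosome, from its first to its last peak in either list, was divided into tiles as wide as each window. Such tiles held at least 1 peak in 16.2% to 31% of cases in leukemia 1 and in 12.1% to 24.7% in leukemia 2, depending on the width. The tiles include gene-poor sequence, so they are not a background of genes. The loci carried 4.35 peaks per Mb in leukemia 1, against 2.27 per Mb over the whole span, a ratio of 1.91. In leukemia 2 they carried 3.62 per Mb against 1.48, a ratio of 2.44. These ratios rest on 6 and 5 peaks. Without the window of Myb they were 1.15 and 1.17, and no other locus was left out of the ratios.

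**Figure D1:**
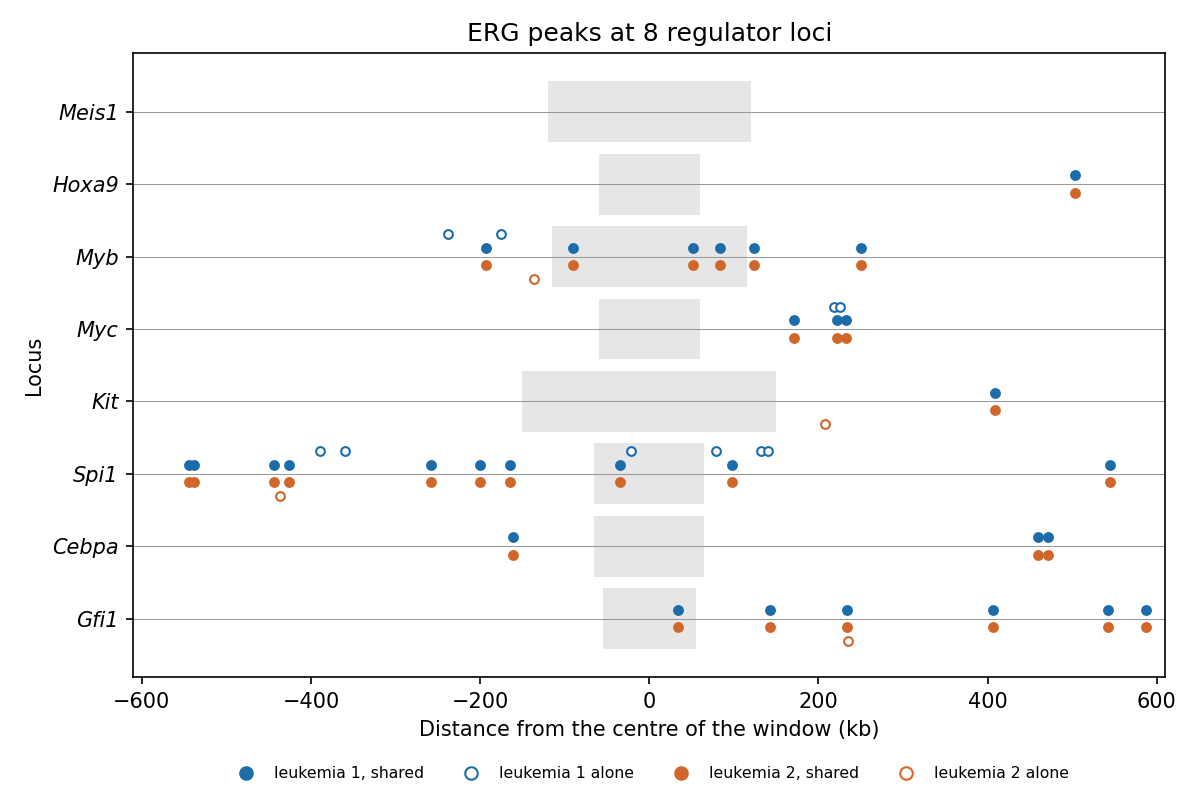
ERG peaks around the 8 loci. Each row is a locus, the x axis is the distance in kb from the centre of its window (grey), points above the line are peaks of leukemia 1 and points below it peaks of leukemia 2; filled points overlap a peak of the other list and open points do not. Peaks fall inside the grey windows of Myb, Spi1 and Gfi1, and the row of Meis1 is empty over the 600 kb shown on either side; its nearest peak lies 850.4 kb above its window.

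Myb had the most peaks of the 8 loci, 3 in each leukemia, and all 3 were shared, meaning that they overlapped by 1 bp or more with a peak of the other list. Of all peaks, 55.8% in leukemia 1 and 85.3% in leukemia 2 were shared. In its window, chr10:20750000-20980000 in mm9, leukemia 1 had peaks at chr10:20774571-20774970, chr10:20916325-20916724 and chr10:20948258-20948657. In leukemia 2 they lay at chr10:20774640-20775039, chr10:20916329-20916728 and chr10:20948229-20948628. The centres of the 3 pairs were 69, 4 and 29 bp apart, so both leukemias marked the same places. Neighbouring centres were 141.8 and 31.9 kb apart in leukemia 1, and 141.7 and 31.9 kb in leukemia 2. The upper 2 peaks were thus closer than the median distance between neighbours, 91.2 kb in leukemia 1 and 160.4 kb in leukemia 2. The distance from the first peak to the next was above that median in leukemia 1 and below it in leukemia 2. Distances inside the window cannot pass its width of 230 kb, so the medians are not a background for them.

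A further shared peak lay just outside the Myb window, 8.8 kb past its upper edge, at chr10:20988568-20988967 in leukemia 1 and chr10:20988576-20988975 in leukemia 2. The upper side is the side of Hbs1l, the next gene in the order of GRCm38.p6, and the lower side is that of Ahi1. Control elements of Myb are known in the stretch between Myb and Hbs1l, but without an mm9 annotation no peak was assigned to an element, an intron or a start. Leukemia 2 had 1 peak without a partner 21.8 kb below the window, at chr10:20728023-20728422. Leukemia 1 had its own unshared peak farther out, 60.5 kb below the window. Among tiles of 230 kb, the width of the Myb window, 26.3% held at least 1 peak and 6.43% at least 3 peaks in leukemia 1. In leukemia 2 these shares were 20.6% and 3.33%.

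The other loci of progenitor factors had no peak in their windows. Meis1 lay in a long stretch without ERG peaks. Leukemia 1 had no peak from 1593.3 kb below its window (chr11:18730000-18970000) to 850.4 kb above it, a stretch of 2.68 Mb. In leukemia 2 the stretch was 2.77 Mb. Stretches at least as long were few, 3.74% of all stretches between neighbouring peaks in leukemia 1 and 6.08% in leukemia 2. Being long, they made up 40.1% of the distance spanned by leukemia 1 peaks and 47.7% for leukemia 2. Tiles of 240 kb held a peak in 27.1% and 21.4% of cases. The nearest shared peak to Meis1 was at chr11:19824186-19824585 in leukemia 1, on the side of the neighbouring gene Spred2.

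Hoxa9 sits between Hoxa7 and Hoxa10 in a cluster of homeobox genes, so its window (chr6:52100000-52220000) is a window on that cluster rather than on 1 gene. No peak lay in it in either leukemia. The first peaks outside were shared by both lists, 664.1 kb below and 443.7 kb above. They left a stretch of 1.23 Mb without a peak in each leukemia. Stretches that long or longer made up 63.4% of the span in leukemia 1 and 70.6% in leukemia 2. Tiles of 120 kb held a peak in 17.1% of cases in leukemia 1 and 12.9% in leukemia 2.

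Myc had no peak in its window (chr15:61760000-61880000, also 120 kb), but a group of peaks lay above it. Leukemia 1 had 5 peaks from 110.7 to 172.7 kb past the window edge, and leukemia 2 had 3 from 110.8 to 172.7 kb. All 3 peaks of leukemia 2 were shared. They lay at chr15:61990584-61990983, chr15:62041426-62041825 and chr15:62052537-62052936. The 2 peaks of leukemia 1 without a partner, at chr15:62038070-62038469 and chr15:62045720-62046119, lay between the first and the last of these. Over the whole lists, 55.8% of leukemia 1 peaks and 85.3% of leukemia 2 peaks were shared. Below the window the next peak in both lists was 2664.8 kb away. The peaks around Myc were thus all on 1 side within 1000 kb of the window. The whole stretch without a peak was 2.90 Mb in each leukemia. Stretches at least as long made up 37.8% of the span in leukemia 1 and 46.4% in leukemia 2.

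The receptor locus Kit had no peak in the widest window of the 8, chr5:75800000-76100000. Tiles of its width, 300 kb, held a peak in 31% of cases in leukemia 1 and 24.7% in leukemia 2. Leukemia 2 had a peak 58.1 kb above the window, at chr5:76157877-76158276, on the side of Kdr, which encodes a receptor for vascular endothelial growth factor. That peak had no partner: the nearest centre of leukemia 1 was 200.4 kb away. The next peak was shared, 258.4 kb above the window. Below the window the nearest peak was 2053.1 kb away in both lists. The stretch without a peak was 2.61 Mb in leukemia 1 and 2.41 Mb in leukemia 2, and stretches at least as long made up 41% and 52.8% of the spans.

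**Figure D2:**
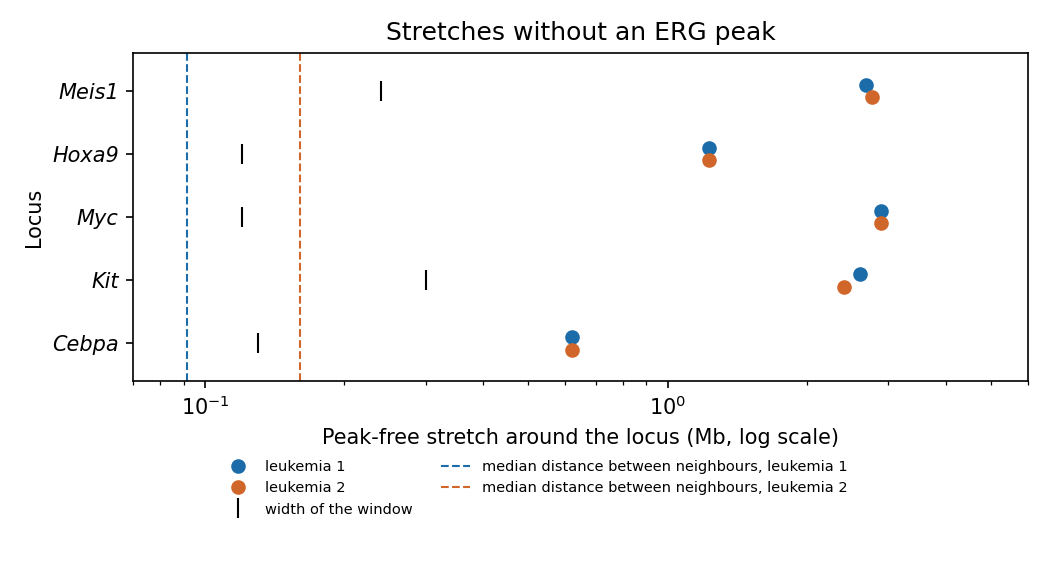
Stretches without an ERG peak around the 5 loci whose windows held none. Points give the length in Mb (log scale) from the last peak before to the first peak after the locus in each leukemia, black ticks the width of the window and dashed lines the median distance between neighbouring peaks of each list, 91.2 and 160.4 kb. The stretches run from 0.62 Mb at Cebpa to 2.90 Mb at Myc; a fixed position falls more often into a long stretch than into a short one, so the dashed lines are not a background for the points.

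Among the myeloid factors, Spi1 had peaks in both leukemias, and it was the 1 locus of the 8 whose count of peaks differed between them. Its window, chr2:90880000-91010000, held 2 peaks of leukemia 1, at chr2:90910422-90910821 and chr2:90923040-90923439. Leukemia 2 had 1 peak, at chr2:90910438-90910837. The first region was shared, with centres 16 bp apart. The second, 12.6 kb further on, was called in leukemia 1 alone. Such peaks are frequent in the whole list of leukemia 1, where 55.8% were shared, against 85.3% of leukemia 2 peaks. Spi1 is known to be controlled by a distal enhancer that PU.1 itself binds, but without an mm9 annotation neither peak was assigned to it. With no height or depth for any peak, a weaker signal in leukemia 2 that fell short of the calling threshold cannot be told apart from no signal.

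Further peaks lay around the Spi1 window. Leukemia 1 had a peak without a partner 13.9 kb above the window, at chr2:91023673-91024072. A shared peak followed 33.0 kb above the window. Within 250 kb on either side of the window, window included, leukemia 1 had 9 peaks and leukemia 2 had 5. Of these, 5 of the 9 and all 5 of leukemia 2 were shared, beside 55.8% and 85.3% of the whole lists. For Myb the same range held 8 peaks of leukemia 1 and 7 of leukemia 2, of which 6 were shared. The 4 peaks of leukemia 1 alone in the range around Spi1 lay in the window or above it. Tiles of 130 kb, the width of the windows of Spi1 and Cebpa, held at least 1 peak in 18.2% of cases in leukemia 1 and 13.6% in leukemia 2. At least 2 peaks were held by 6.96% of such tiles in leukemia 1.

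Gfi1, which encodes a zinc finger repressor active in granulocyte progenitors and stem cells, had 1 shared peak. Its window is chr5:108100000-108210000, and the peak lay at chr5:108188174-108188573 in leukemia 1 and chr5:108188206-108188605 in leukemia 2, with centres 32 bp apart. Of tiles of 110 kb, 16.2% held a peak in leukemia 1 and 12.1% in leukemia 2. The next peaks above, 87.5 and 178.8 kb past the window, were shared as well. Leukemia 2 had a further peak without a partner 179.9 kb above the window, at chr5:108389690-108390089. Below the window, the nearest peak of leukemia 1 was 578.7 kb away and that of leukemia 2 was 2235.3 kb away.

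Cebpa had no peak in its window (chr7:35850000-35980000), but peaks lay on both sides of it. Within 500 kb of the window each leukemia had 3 peaks, and all 3 were shared, beside 55.8% and 85.3% of the whole lists. Within 1000 kb leukemia 1 had 7 peaks and leukemia 2 had 6, and 6 were shared. The peak without a partner, of leukemia 1, lay 559.6 kb above the window at chr7:36539397-36539796. The nearest peak to Cebpa lay 95.7 kb below the window, at chr7:35754126-35754525 in leukemia 1. The first 2 above the window lay 394.2 and 406.3 kb from it. The stretch without a peak was 0.62 Mb in each leukemia, and stretches at least as long made up 77.1% and 83.2% of the spans.

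**Figure D3:**
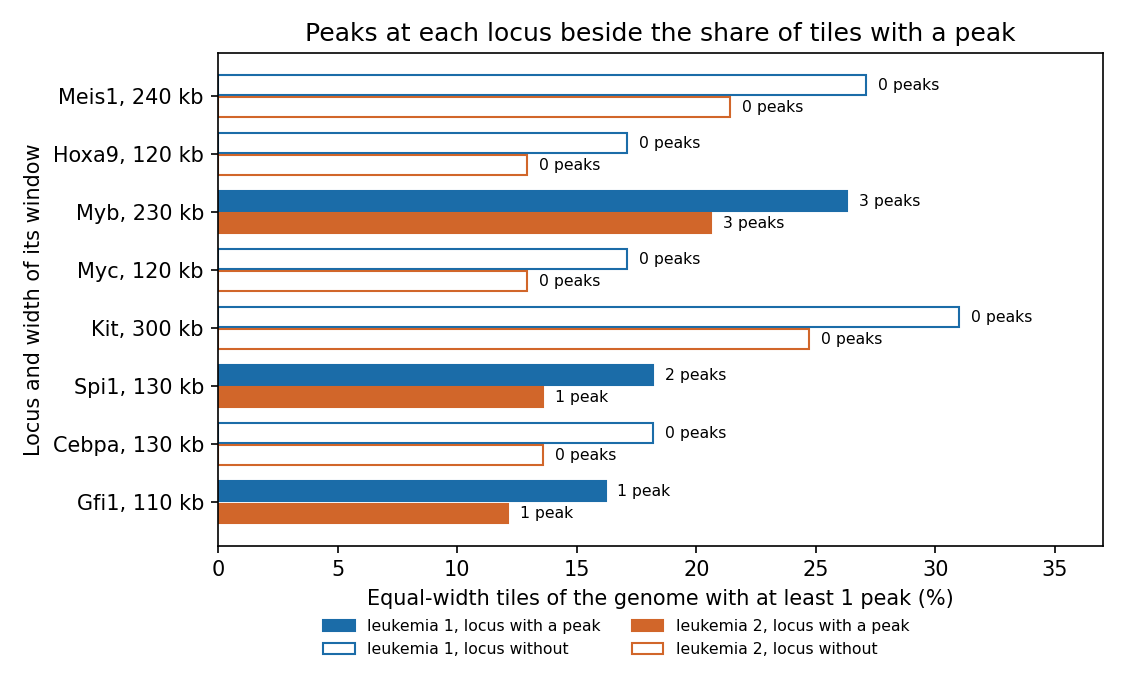
Number of ERG peaks at each locus (printed at the bar end) beside the share of genome tiles of the same width that held at least 1 peak (bar length, percent). Filled bars are loci with a peak in that leukemia and open bars loci without; Kit has the longest bars, 31% and 24.7%, and no peak, while Gfi1 has the shortest, 16.2% and 12.1%, and 1 peak in each leukemia.

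Across the 8 loci the lists marked 6 distinct regions, of which 5 were shared. These were 83.3% of the 6 peaks of leukemia 1 (95% exact Clopper-Pearson interval 35.9 to 99.6) and 100% of the 5 peaks of leukemia 2 (47.8 to 100). The shares over the whole lists were 55.8% and 85.3%. With so few peaks the intervals are too wide to compare the loci with the lists, and no such comparison was tested. The intervals cover counting error only, and peaks are not replicates of a condition. Centres of the 5 shared regions were 4 to 69 bp apart, with a median of 29 bp. Over all shared regions the median was 12 bp, the third quartile 32 bp and the 90th percentile 94 bp.

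The spacing of peaks at these loci was set beside that of the whole lists. Of the 6 peaks of leukemia 1, 0 had another peak of the same list within 10 kb, and of the 5 of leukemia 2, 0 had one. In the whole lists 21.5% and 14% of peaks had such a neighbour. Within 50 kb, 4 of 6 and 3 of 5 had a neighbour, against 56.2% and 44.6% of the whole lists. With 6 and 5 peaks these counts are description only, and no test compared the loci with the lists. The peaks with a neighbour within 50 kb were at Spi1 in leukemia 1 and at Myb in both leukemias, counting neighbours outside the windows.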

How the data were processed

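ERG and IgG libraries were made from each of 2 leukemias, 4 samples in all, 1 per group by title. The 2 peak lists were assigned to the ERG samples whose titles their names carry. Reads were aligned with Bowtie and the build is mm9, per the submitters' processing notes. For the peak caller, its settings and the role of the IgG libraries, the sources used here give nothing. The deposited values are starts and ends of intervals, all 400 bp wide, with no other measure, so depth is unknown.

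Windows were taken from the rule that defines the loci and could not be checked against an mm9 annotation. A peak belonged to a window by its centre and was shared with an overlap of 1 bp or more. Tiles ran from the first to the last peak of either list on each of 20 chromosomes. With 1 library per group no test compares the leukemias. All 8 loci are named, each with every peak in its window. Positions count from 1. The other myeloid regulators that had been listed need an mm9 annotation and were not analysed. Promoter letters and gene order come from RefSeq GRCm38.p6. The letters were not joined to mm9 positions. Gene order was used only to name the side of a window on which an mm9 peak lay, and was not checked in mm9.

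The loci and lists were chosen with earlier results of these data known. Alternatives were other overlap rules, window widths, tiles and neighbour distances, and loci left out. The functions were tested on simulated data. Python 3.11.15, NumPy 2.4.6, SciPy 1.17.1 and matplotlib 3.10.9 were used.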

Additional observations from a re-analysis of the deposited data

How the results depend on the processing

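Windows narrowed by 20 kb on each side, or peaks required to lie wholly inside, left the counts of 6, 5 and 5 (leukemia 1, leukemia 2, shared) as they were, as did overlap of at least 50% and centres within 500 bp for the shared count. With centres within 50 bp 4 were shared, because the Myb pair 69 bp apart dropped out. Windows widened by 50 kb held 9 and 8 peaks, 7 shared. After seeing the data they were widened by 250 kb (26 and 21 peaks, 18 shared) and by 500 kb (40 and 34, 30 shared), which adds peaks by construction. Without Myb 3 and 2 peaks remained, 2 shared. Without Spi1 100% of leukemia 1 peaks were shared. The median share of tiles with as many peaks as an occupied locus was 6.96% in leukemia 1 and 12.1% in leukemia 2. The first is the value of Spi1, for at least 2 peaks in 130 kb. The second is that of Gfi1, for at least 1 peak in 110 kb, so these medians do not compare the leukemias. The median share was 7.43% and 13.9% on the chromosome of the locus alone, where the cause was not tested. It was 36.3% and 70.1% among tiles with a peak of either list, which leaves out empty tiles. Neighbours within 50 kb were 4 and 3, against 0 and 0 within 10 kb, and 0 and 0 within 5 kb. Alternatives that need a peak score were not run. What a missing peak can show is limited by the unknown depth and calling threshold. No paired analysis was possible because the groups hold 1 library each.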
